A study of Mus musculus with 6 samples.

Results

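The genes described here are 9 transcripts used to recognise border-associated macrophages, the macrophages that line the vessels and membranes of the brain. They are Mrc1, Pf4, Cbr2, F13a1, Folr2, Ccl24, Stab1, Lyve1 and Cd163, and they were taken as a fixed list among 19361 genes in the tables. A barcode with 3 or more unique molecular identifiers (UMIs, each a captured transcript counted once) summed over the list is called list-positive below. In all, 566 of 6000 barcodes were list-positive, at any mitochondrial share, and 6607 UMIs came from the list. Drop-seq, a droplet method that reads the 3′ end of transcripts from single cells, was run on myeloid cells of perfused mouse brains after papain digestion, a Percoll gradient and magnetic enrichment for Cd11b. All mice were females of 2 to 3 months on the C57BL/6 background. The libraries labelled naive 1 and naive 2 came from wild-type mice without tumours, and those labelled metastasis 1 and metastasis 2 from wild-type mice with brain metastases, 2 to 3 weeks after E0771 mammary carcinoma cells had been injected into the heart. Each of these 4 held cells of 1 brain. The heterozygous (Cx3cr1+/-) and null (Cx3cr1-/-) libraries, 1 of each, came from metastasis-bearing mice with 2 brains pooled, so neither has a wild-type or tumour-free partner of its own preparation.

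Border-associated macrophages live in the meninges, the perivascular spaces and the choroid plexus, whereas microglia occupy the brain tissue itself. They are known as endocytic cells, equipped with scavenger receptors that clear proteins, lipids and debris from fluid at the brain's edges. Monocytes that enter an inflamed or tumour-bearing brain can turn on some of the same genes, and embryonic or cultured microglia can as well. The list mixes these roles. Mrc1 encodes the mannose receptor, Stab1 and Cd163 encode scavenger receptors (Cd163 for haemoglobin bound to haptoglobin), Lyve1 encodes a hyaluronan receptor and Folr2 a folate receptor. Pf4 and Ccl24 encode secreted chemokines, of which Pf4 is best known from platelets. Cbr2 encodes a carbonyl reductase and F13a1 the A subunit of coagulation factor XIII, which cross-links fibrin.

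The stretch before the start site is shown for the 3 members with the most UMIs, of which Mrc1 and Pf4 were higher in the barcodes chosen by the other members in every library, and Stab1 in 2 of 6. RefSeq promoters (GRCm38.p6) were matched for 7 of 9 members, with 9 promoters in all. Each line gives the 250 bases before the RefSeq start, 5′ to 3′ on the gene's strand. Capitals mark GAGGAA, a core bound by the myeloid factor PU.1, and TGCTGA, a MAF half-site, each searched on both strands.
Mrc1 (chr2:14229164-14229413, plus strand): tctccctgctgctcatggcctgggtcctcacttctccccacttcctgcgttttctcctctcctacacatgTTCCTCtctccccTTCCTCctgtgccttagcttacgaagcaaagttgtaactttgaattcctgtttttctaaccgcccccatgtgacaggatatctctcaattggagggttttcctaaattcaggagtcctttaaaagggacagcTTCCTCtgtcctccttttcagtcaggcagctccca
Pf4 (chr5:90772185-90772434, plus strand): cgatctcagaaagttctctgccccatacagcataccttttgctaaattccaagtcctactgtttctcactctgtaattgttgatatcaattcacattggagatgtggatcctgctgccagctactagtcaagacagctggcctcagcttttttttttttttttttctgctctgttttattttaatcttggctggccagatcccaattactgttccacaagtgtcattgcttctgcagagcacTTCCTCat
Stab1 (chr14:31168642-31168891, minus strand): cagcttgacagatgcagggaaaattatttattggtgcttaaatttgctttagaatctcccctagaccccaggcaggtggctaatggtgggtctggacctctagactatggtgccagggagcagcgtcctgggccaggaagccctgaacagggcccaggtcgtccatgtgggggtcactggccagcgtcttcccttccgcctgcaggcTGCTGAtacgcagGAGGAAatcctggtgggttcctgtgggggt
The Mrc1 stretch held the PU.1 core 3 times, the Pf4 stretch held it once, and the Stab1 stretch held it once beside 1 MAF half-site. Over the 9 member promoters, 5 held the PU.1 core and 3 the MAF half-site, beside 23.3% and 16.1% of 32851 promoters of the same length. These matches are letters in a window, and no binding was measured.

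Each library held 1000 barcodes, with totals of 491621 to 2667099 UMIs and medians of 323.5 to 1708.5 UMIs per barcode. The median share of mitochondrial UMIs ran from 2.96% to 20.3%, and no pair of libraries shared more than 1 barcode. Microglial barcodes, those with 3 or more UMIs over 8 microglial genes and fewer over the infiltrating ones, numbered 404 to 934 per library. Infiltrating barcodes had 3 or more UMIs over 9 genes of monocytes and recruited macrophages and fewer over the microglial genes. They numbered 174 in metastasis 1, 31 in naive 2, 24 in heterozygous, 15 in null, 3 in naive 1 and 0 in metastasis 2. Cx3cr1, the targeted gene, stood at 1323 CPM (UMIs per 1000000 counted) in the heterozygous library and 63.5 CPM in the null library; which part of it the allele removes is not given in the sources used here. For the 4 wild-type libraries, the file names carry the other group's name than the sample labels do; the labels were followed. Rhox5, a gene of the carcinoma cells, had 1340 UMIs in metastasis 1, 0 in naive 1, 27 in naive 2 and 0 in metastasis 2, so in replicate 2 it went against the labels. The infiltrating list stood at 90.8 CPM in naive 1 and 1014 in metastasis 1, but at 767 in naive 2 and 71.2 in metastasis 2. The microglial list stood at 10567 and 1367 CPM in naive 1 and metastasis 1, and at 5195 and 10744 CPM in naive 2 and metastasis 2. Both lists thus reversed between replicates as well. For that reason the members' contrasts of metastasis with naive are given within each replicate as well, and the names naive and metastasis stand for the labels only.

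Among the receptors, Stab1 and Mrc1 made up most of the list. Stab1 gave 2926 UMIs, 44.3% of the list, in 1859 barcodes. Its level over all barcodes was 321 CPM in naive 1, 507 in naive 2, 48.7 in metastasis 1, 350 in metastasis 2, 343 in heterozygous and 337 in null. Metastasis 1 stood far below the other 5, whose values lay between 321 and 507 CPM. Mrc1 followed with 1234 UMIs in 683 barcodes, at 253, 74.6, 151, 193, 84.6 and 60.1 CPM in the same order of libraries. Here naive 1 was highest and naive 2, heterozygous and null formed the low end, so the replicates of 1 label did not keep together. The rarer receptors were seen in few barcodes. Cd163 gave 129 UMIs in 107 barcodes and 6.00 to 27.8 CPM, Lyve1 gave 87 UMIs in 60 barcodes and 2.47 to 27.8 CPM, and Folr2 gave 61 UMIs in 42 barcodes and 1.13 to 26.2 CPM. All 3 were highest in naive 1, and Folr2 rested on 2 UMIs each in naive 2, metastasis 2 and null.

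The secreted factors differed widely in abundance. Pf4 gave 1273 UMIs in 460 barcodes, at 219 CPM in naive 1, 61.6 in naive 2, 201 in metastasis 1, 132 in metastasis 2, 95.5 in heterozygous and 43.1 in null. It was concentrated in few barcodes, with up to 37 UMIs in 1 of them and 77.6% of its UMIs in list-positive barcodes. Of platelet genes, Ppbp, another chemokine gene, had 1 UMI in all 6 libraries, and a list of 8 summed to 8.62 to 69.2 CPM. At least 1 UMI of that list was found in 63 of 566 list-positive barcodes and 3 or more in 3, and the part of platelets in Pf4 was not tested. Ccl24, an eosinophil attractant, gave 102 UMIs, from 1.50 CPM in metastasis 1 to 32.5 in metastasis 2. The enzyme gene Cbr2 gave 208 UMIs in 114 barcodes, at 70.4, 9.25, 9.37, 42.7, 17.7 and 10.8 CPM. F13a1 was the evenest member, at 43.1 to 88.4 CPM with 587 UMIs in 376 barcodes. A lower level over all barcodes can mean fewer cells of a type or less RNA in each, and these cannot be told apart in such sums.

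**Figure D1:**
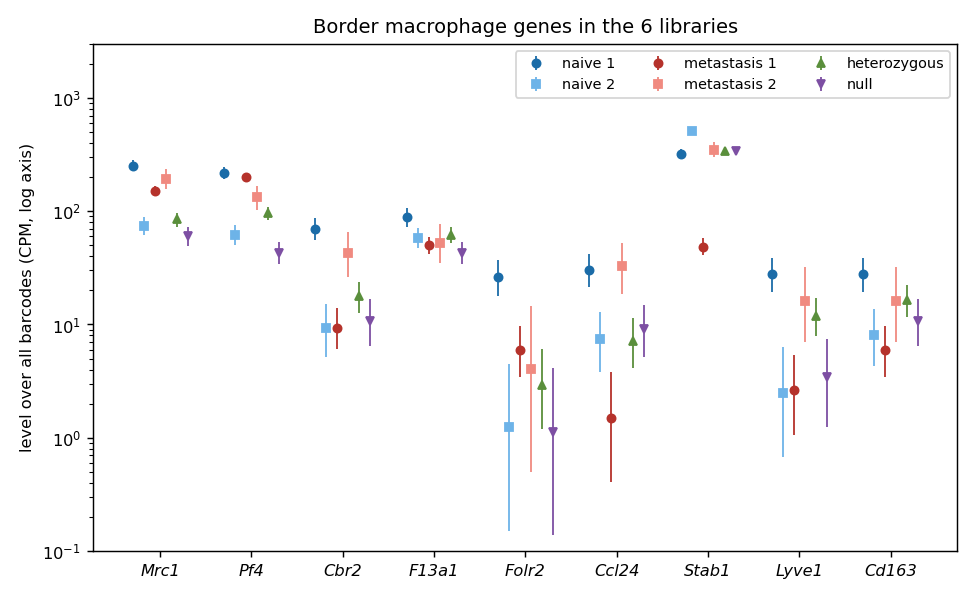
Level of each of the 9 genes over all 1000 barcodes of each library, in CPM on a log axis; bars are exact 95% Poisson intervals, which cover counting error only. Stab1 is low in metastasis 1 (48.7 CPM) and at 321 CPM or more in the other 5 libraries, while most other members are highest in naive 1.

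The list summed to 1064 CPM in naive 1, 730 in naive 2, 477 in metastasis 1, 840 in metastasis 2, 641 in heterozygous and 519 in null. Stab1 held 69.4% of these UMIs in naive 2 and 10.2% in metastasis 1, so the same sum stood for different genes. List-positive barcodes numbered 94 (9.4%, exact 95% interval 7.66% to 11.4%) in naive 1, 108 (10.8%) in naive 2, 109 (10.9%) in metastasis 1, 24 (2.4%, 1.54% to 3.55%) in metastasis 2, 143 (14.3%) in heterozygous and 88 (8.8%) in null. Metastasis 2, the shallowest library, was the lowest by far. The chosen barcodes were deep: their median was 2849 UMIs in metastasis 1 against 1635 in its other barcodes, and 3915 against 1376 in the heterozygous library. The rule favours deep barcodes, since 3 UMIs are reached more often in them. After each barcode was thinned to 800 UMIs, the shares were 6.73% in naive 1 (30 of 446), 3.51% in naive 2 (24 of 684), 2.0% in metastasis 1 (20 of 999), 3.39% in metastasis 2 (2 of 59), 2.28% in heterozygous (22 of 965) and 1.31% in null (12 of 915). Of the 566 barcodes, 276 had exactly 3 list UMIs, and 695 more lay just outside at 2. By mitochondrial share, 361 lay under 10%, 156 between 10% and 25%, and 49 at 25% or more.

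What these barcodes held differed between libraries. In 194 of 566 all list UMIs came from 1 gene, which was Stab1 in 143 of them. Stab1-only barcodes numbered 51 in naive 2, 46 in heterozygous and 32 in null, against 8 in naive 1, 2 in metastasis 1 and 4 in metastasis 2. Without Stab1 in the list (a setting chosen after its values were seen), 231 barcodes were left: 57, 16, 94, 13, 34 and 17 in the same order. At least 2 members were found in 372 barcodes, at least 3 in 135, and 4 or more in 64. The last group, called the multi-member barcodes here, numbered 25 in naive 1, 7 in naive 2, 10 in metastasis 1, 4 in metastasis 2, 14 in heterozygous and 4 in null. They held 42.2% of the list's UMIs in naive 1 and 5.79% in null. In 1 barcode of naive 1 all 9 members were detected, and the barcode with the most list UMIs, in the heterozygous library, held 96 of them from 7 members among 9822 UMIs.

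**Figure D2:**
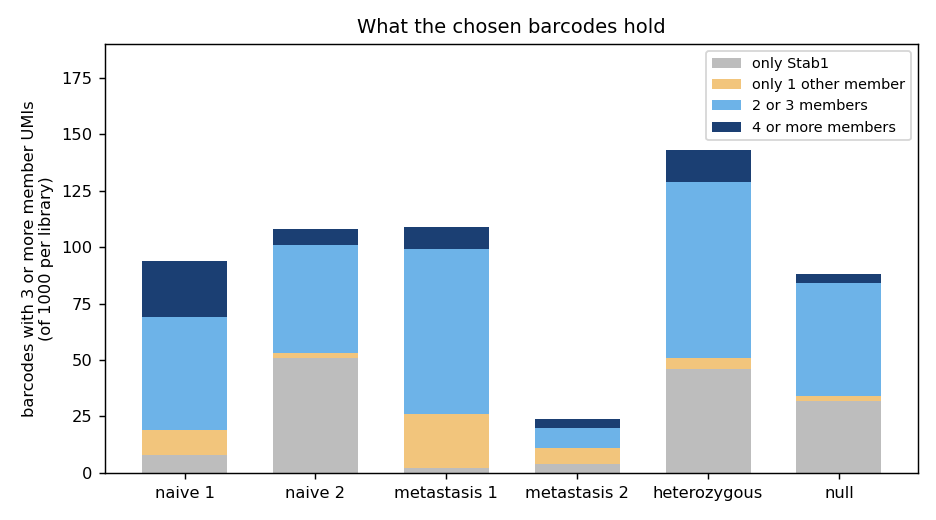
Number of barcodes with 3 or more UMIs over the 9 genes in each library of 1000, stacked by what they hold. Barcodes with Stab1 alone make up 51 of 108 in naive 2 and 2 of 109 in metastasis 1; barcodes with 4 or more members are most numerous in naive 1 (25).

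Members were then read in barcodes chosen without them, that is by 3 or more UMIs over the other 8 members, beside microglial barcodes with under 3 such UMIs. Pf4 stood at 361 CPM in the chosen barcodes and 47.2 in the microglial ones (log2 ratio 2.94, 95% counting interval 2.74 to 3.13) and was higher in 6 of 6 libraries. Mrc1 stood at 231 against 85.5 CPM (1.43, 1.25 to 1.61) and was higher in 6 of 6. Cbr2 was also higher in 6 of 6, at 59.4 against 9.59 CPM (2.63, 2.18 to 3.10). Each of these 3 thus went with the other members in all 6 libraries, although Cbr2 rested on 2 chosen barcodes in metastasis 2 and 3 in null. F13a1 (log2 ratio 1.17) was higher in 5 of 6 libraries, Folr2 (3.21, on 45 and 12 UMIs) in 5, Ccl24 (1.50) in 4 and Lyve1 (1.25) in 4. Cd163 gave a log2 ratio of 0.43 with an interval of -0.17 to 1.00, so its pooled difference lay within counting error, although it was higher in 5 of 6 libraries.

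Stab1 behaved otherwise. It was found in 1517 of 4362 microglial barcodes (34.8%) and in 91 of 231 barcodes chosen by the other 8 (39.4%, 33.1% to 46.0%), and its level was lower in the chosen ones, at 215 against 328 CPM (log2 ratio -0.61, -0.81 to -0.41). It was higher in 2 of 6 libraries, naive 1 (579 against 288 CPM) and metastasis 2 (345 against 327 CPM). The pooled value mixes libraries, since 94 of the 231 chosen barcodes came from metastasis 1, where Stab1 is low throughout; the median over the 6 libraries was -0.49. With every barcode thinned to 800 UMIs the pooled ratio turned to 0.73 (0.17 to 1.25), higher in 3 of 4 libraries, so its direction changed with thinning, which also left fewer chosen barcodes (63). For the other 8 members the thinned ratios were all above 0, from 2.10 for Cd163 to 6.83 for Folr2, the latter on few UMIs, and the interval of Lyve1 (2.35, -0.06 to 4.14) spans 0. Mrc1 was higher in 5 of 5 libraries then, Pf4, F13a1, Ccl24 and Cd163 in 4, Cbr2 in 3, and Folr2 and Lyve1 in 2.

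**Figure D3:**
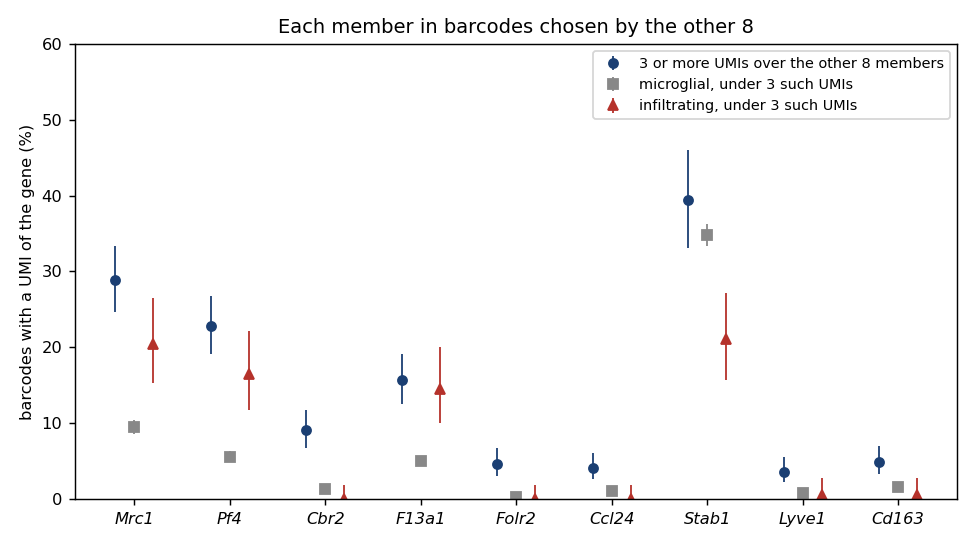
Share of barcodes with a UMI of each gene in barcodes with 3 or more UMIs over the other 8 genes (circles), microglial barcodes (squares) and infiltrating barcodes (triangles), over all 6 libraries; bars are exact 95% binomial intervals, which cover counting error only. Mrc1 and Pf4 stand apart from microglial barcodes, F13a1 is about as frequent in infiltrating barcodes, and Stab1 is frequent in microglial barcodes.

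Pairs of members showed the same order. Of the 460 barcodes with Pf4, 131 (28.5%) also held Mrc1, while Mrc1 was found in 11.4% of all 6000 barcodes. Of the 42 barcodes with Folr2, 27 (64.3%) also held Mrc1, 23 (54.8%) Pf4 and 17 (40.5%) Cbr2. Cbr2 barcodes held Stab1 in 46.5%, Mrc1 in 41.2%, Pf4 in 39.5% and F13a1 in 34.2%. Over all barcodes Pf4 was found in 7.67%, F13a1 in 6.27% and Cbr2 in 1.9%. Stab1 was found in 31.0% of all barcodes and in 36.5% of those with Mrc1, 33.9% with Pf4 and 41.8% with F13a1. Lyve1 and Cd163, both markers of perivascular cells, were found together in 8 barcodes, 13.3% of those with Lyve1 and 7.48% of those with Cd163. Over all barcodes Cd163 was found in 1.78% and Lyve1 in 1%. Barcodes with any member are deeper than others, which raises all of these shares, and points share libraries, so they are given as a description.

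**Figure D4:**
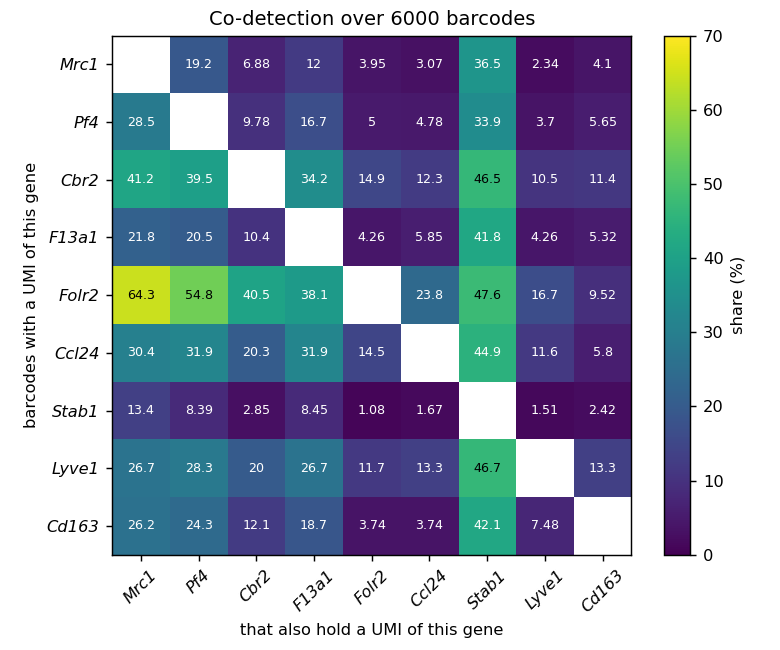
Share of the barcodes with a UMI of the row gene that also hold a UMI of the column gene, over all 6000 barcodes. The Folr2 row is brightest for Mrc1 and Pf4 (64.3% and 54.8%) and the Cbr2 row for Stab1, Mrc1 and Pf4 (46.5%, 41.2% and 39.5%), whereas the Stab1 column lies between 33.9% and 47.6% for every other gene.

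In the 64 multi-member barcodes Pf4 was found in 58, Mrc1 in 57, Stab1 in 51, F13a1 in 50, Cbr2 in 40, Cd163 in 21, Folr2 and Ccl24 in 20 each and Lyve1 in 14. These barcodes held 63.9% of all Folr2 UMIs, 59.1% of those of Cbr2 and 43.9% of those of Pf4, but 5.09% of those of Stab1. Most were microglial barcodes as well: 53 of 64 passed that gate, as did 454 of all 566 list-positive barcodes. The summed microglial list was lower in them, at 4279 CPM against 6905 CPM in microglial barcodes with under 3 list UMIs. It stood at 6406 CPM in list-positive barcodes with 1 member and 5102 CPM in those with 2 or 3. Doublets were not called, so barcodes that hold a macrophage and a microglial cell cannot be told apart from single cells with both sets of genes. Endothelial genes, a list of 8, had 3 or more UMIs in 54 of the 566, of which 20 lay in naive 2 and 21 in the heterozygous library, and their part was not tested.

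Microglial barcodes carried members as well. In metastasis 1, where carcinoma cells give a class without macrophage identity, shares were compared after thinning to 800 UMIs, with under 3 UMIs of the other members in each class. Mrc1 was found in 36 of 399 microglial barcodes (9.02%), 16 of 171 infiltrating barcodes (9.36%) and 4 of 101 carcinoma barcodes (3.96%), against 10 of 17 chosen by the other 8 members; the exact intervals of the microglial (6.40% to 12.3%) and carcinoma shares (1.09% to 9.83%) overlap. Pf4 was found in 24 of 402 microglial (5.97%), 18 of 172 infiltrating (10.5%) and 7 of 101 carcinoma barcodes (6.93%), and in 8 of 9 chosen ones. Its microglial (3.86% to 8.75%) and carcinoma intervals (2.83% to 13.8%) overlap. Without thinning, Pf4 was at 65.3 CPM (51.4 to 81.7) in microglial and 34.9 CPM (22.1 to 52.4) in carcinoma barcodes. Whether the carcinoma share measures background was not tested. F13a1 was found in 15 of 398 microglial (3.77%), 13 of 171 infiltrating (7.60%) and 1 of 101 carcinoma barcodes (0.99%). In neutrophil barcodes of that library it was found in 5 of 15 (33.3%, exact interval 11.8% to 61.6%), at 417 CPM. Stab1 was found in 25 of 397 microglial (6.30%), 5 of 170 infiltrating (2.94%) and 2 of 101 carcinoma barcodes (1.98%).

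Members were also read over all infiltrating barcodes of metastasis 1. F13a1 stood at 86.3 CPM, against 23.5 CPM in microglial barcodes of the same library (log2 ratio 1.88, counting interval 1.16 to 2.61). Mrc1 gave 221 against 127 CPM (0.79, 0.41 to 1.16) and Pf4 223 against 155 CPM (0.52, 0.16 to 0.88), while Stab1 gave 50.4 against 51.9 CPM (-0.04, -0.82 to 0.67). Across the 6 libraries, F13a1 in barcodes chosen by the other 8 members was at 84.7 CPM and in infiltrating barcodes at 77.8 CPM, a log2 ratio of 0.12 (-0.37 to 0.65), within counting error. For Mrc1 that ratio was 0.82 (0.47 to 1.19) and for Pf4 1.73 (1.35 to 2.13), each higher in 4 of 4 libraries. Outside metastasis 1 this rests on few UMIs in infiltrating barcodes. In naive 2, heterozygous and null these held 2, 4 and 2 Mrc1 UMIs and 0, 2 and 0 Pf4 UMIs. Infiltrating barcodes with 3 or more UMIs of the other members count as chosen there, not as infiltrating. With infiltrating barcodes chosen by Spp1 and Ms4a7 instead, the same ratio was 0.74 for F13a1 (-0.64 to 2.63, on 4 barcodes with F13a1). Mrc1 was then at -0.39 (-0.91 to 0.17) and Pf4 at -0.12 (-0.58 to 0.37), all within counting error. For Mrc1, 45 of these 46 infiltrating barcodes lay in metastasis 1, whereas the chosen ones came from 6 libraries. Within metastasis 1, Pf4 was at 763 CPM in chosen and 313 CPM in such infiltrating barcodes. Mrc1 was at 404 and 316 CPM there, with overlapping intervals. Cbr2, Folr2 and Ccl24 were found in 0 of 199 infiltrating barcodes with under 3 UMIs of the other members, which allows a share of up to 1.51% of such barcodes at their depth, and Lyve1 and Cd163 had 1 UMI each there. That rule leaves out infiltrating barcodes that also hold other members: over all 174 infiltrating barcodes of metastasis 1, Cbr2 had 6 UMIs in 4 barcodes (14.4 CPM, against 4.98 CPM in microglial ones, log2 ratio 1.53, -0.32 to 3.33), Folr2 2 UMIs in 2, Cd163 3 UMIs in 2, and Ccl24 and Lyve1 0. Of the 109 list-positive barcodes of metastasis 1, 31 were also infiltrating, 41 microglial and 9 carcinoma.

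Genes outside the list were compared between list-positive and microglial barcodes, summed per library, over 6 libraries. With edgeR's quasi-likelihood test and library as a term, 351 of 9366 genes passed a Benjamini-Hochberg adjusted p of 0.05, which is 3.75% of those tested; 254 were higher (2.71%) and 97 lower (1.04%) in list-positive barcodes. These counts include the members and marker genes that set the classes, from which nothing is read. Because the list-positive barcodes were deeper, with a median of 2565.5 UMIs against 1086 in the microglial ones, levels are given in CPM. CPM does not undo the choice of deep barcodes, and this comparison was not repeated after thinning. The median mitochondrial share differed too, at 5.58% in list-positive and 12.3% in microglial barcodes. The count rested in part on the heterozygous library, without which 228 genes passed, and it was 7 when list-positive barcodes with 3 or more microglial UMIs were left out, which kept 3 libraries. Other genes of border macrophages, a list of 30 with 25 tested, were higher in 15 and lower in 0, with 10 not passing; their median log2 change was 0.90, beside -0.03 over all genes tested.

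Within that list, Ms4a7, a tetraspan protein used to tell border macrophages from microglia, was at 302 against 81.9 CPM (log2 change 1.67 ± 0.18 SE, adjusted p = 4.76e-09, higher in 6 of 6 libraries). Cd36, a lipid scavenger receptor, rose by 1.85 ± 0.25 (adjusted p = 1.21e-06) and Dab2, an endocytic adaptor, by 1.13 ± 0.17 (adjusted p = 1.32e-05), both in 6 of 6 libraries. Ccl8, a chemokine gene, was 2.40 higher in 5 of 6, and Aoah, an enzyme that inactivates endotoxin, 1.97 higher in 5 of 6. The lectins Clec10a (1.82, in 5 of 6 libraries), Clec12a (1.41, 6 of 6) and Clec4n (1.41, 4 of 6) also rose. Infiltrating barcodes with under 3 list UMIs held more Clec12a than list-positive ones (128 against 72.3 CPM) and more Clec4n (252 against 89.2). Ms4a7 (314 against 302), Cd36 (59.9 against 58.4) and Aoah were about as high in both. Ccl8 (21.97 against 50.14), Dab2 (152 against 231) and Clec10a (3.995 against 18.08) were lower in infiltrating barcodes. The part of infiltrating cells in these rises was not tested. Maf (0.10), a transcription factor gene of macrophages and microglia, Gas6 (0.03), which encodes a ligand of phagocytic receptors, and Hpgd (0.16) did not pass. Of 6 class II antigen presentation genes 5 were higher, among them H2-Aa (1.34 ± 0.15, adjusted p = 2.88e-08) and Cd74 (1.26 ± 0.14, adjusted p = 2.82e-08), each in 6 of 6 libraries; H2-DMb1 (0.44) did not pass.

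Among all genes that are no member, the 8 leading ones with a higher level in every library were Wfdc17 (2.57), Chi3l3 (2.53), Lyz1 (2.18), Cd36, Ifitm2 (1.71), Ms4a7, Gm6377 (1.63) and Cxcl2 (1.54). Wfdc17, a small protease inhibitor, was at 498 against 86.9 CPM. Chi3l3, a chitinase-like protein, and Lyz1, a lysozyme, are genes of monocytes and recruited macrophages; Chi3l3 was at 38.0 against 1.06 CPM in naive 1 and 270 against 68.2 CPM in metastasis 1. All 6 tested genes of the infiltrating list were higher as well, with a median of 1.18, but that list helped to set the reference class and gives no test. Infiltrating monocyte genes thus moved with the border macrophage genes, and their part in the count was not tested. In the multi-member barcodes (chosen after their values were seen, 4 libraries with at least 5 of them) 0 of the 6 infiltrating genes passed, although their median was 1.26, no lower than over all list-positive barcodes. The other border macrophage list had 14 higher and 0 lower of 25 there with a median of 2.24, beside 1.68% of 8193 genes higher, 1.22% lower and a median of -0.22 over all of them. The leading lower genes had few UMIs in list-positive barcodes, from 6 for Xcl1 to 18 for Ccr7. Retnlg stood at 3.29 against 35.5 CPM in microglial barcodes, Ccr7 at 7.40 against 30.5, Nkg7 at 4.52 against 16.6 and Xcl1 at 2.47 against 12.7. Dmd stood at 2.88 against 12.9 CPM, Trpm3 at 3.70 against 13.6, 1500015O10Rik at 3.70 against 14.2 and Gm20594 at 4.93 against 17.6. Of the 212 Retnlg UMIs in microglial barcodes, 156 came from the null library. Retnlg is a neutrophil gene, Ccr7 marks migrating dendritic cells and lymphocytes, and Nkg7 and Xcl1 mark cytotoxic lymphocytes.

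Pooled over the libraries, the other border macrophage genes also followed the number of members in a barcode. Their sum was 2898 CPM in microglial barcodes with under 3 list UMIs, 2991 CPM with 1 member, 3899 CPM with 2 or 3, and 7250 CPM with 4 or more. In each library the sum was highest with 4 or more, but the earlier steps varied. It fell at 1 member in naive 1 (3317 to 2842 CPM) and heterozygous (2764 to 2729). In metastasis 2 it fell from 4801 CPM with 1 member to 3461 with 2 or 3. The class II genes went from 3287 to 3607, 7530 and 16413 CPM over the same steps. These class II steps did not hold in every library. With 1 member the level was below the microglial one in naive 1 (1407 against 1969 CPM), naive 2 (1631 against 3434) and null (3097 against 3860). In metastasis 2 it fell from 4359 CPM with 1 member to 1731 with 2 or 3. In the multi-member barcodes class II stood at 1200 CPM in metastasis 1 and 5209 in null, below the 3808 and 9772 CPM with 2 or 3 members. It stood at 16587 CPM in naive 1, 20057 in naive 2, 17027 in metastasis 2 and 20829 in heterozygous multi-member barcodes. Single barcodes spread from 0 to 81767 CPM with a median of 1291, so a few barcodes carried most of the class II UMIs. Of the 64, 43 held Ms4a7 and 43 held Cd74. Infiltrating barcodes with under 3 list UMIs held 4549 CPM of the other border macrophage genes and 17599 CPM of class II genes.

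By detection over all 6000 barcodes, the genes most like the list (phi coefficient with being list-positive) were Dram2 (0.21), Cd302, Rhog, Mfsd1, Ms4a6d, Tmem37, Gabarap, Ndufa13, Ap2s1 and Cd68 (0.20). After thinning to 800 UMIs these coefficients lay between -0.01 and 0.05, so this likeness moved with depth. For the multi-member barcodes, chosen after their values were seen, the leading genes were Cd4 (0.33, 14 of its 28 barcodes), Chp2, Clec10a, Cd36, Ccl8, Aoah, Dab2, Cd209f, Clec4a1 and Bmp2, of which Clec10a, Cd36, Ccl8, Aoah, Dab2 and Cd209f belong to the other border macrophage list.

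Metastasis was compared with naive over all barcodes, 2 labelled libraries in each group. No member passed the edgeR test, and 0 of 9678 genes did (0%), with 71 under 0.05 before adjustment, and 5 passed in DESeq2. Of the 8 members tested (Folr2 had too few UMIs), 7 had a negative log2 change, with a median of -0.75 beside 0.02 over all genes. Stab1 gave -1.12 ± 0.96 (SE, adjusted p = 0.99968), Cbr2 -0.87, Cd163 -0.94, Lyve1 -1.06, F13a1 -0.63, Ccl24 -0.46, Mrc1 -0.09 and Pf4 0.09. F13a1 was lower in both metastasis libraries (50.2 and 52.9 CPM) than in both naive ones (88.4 and 58.6 CPM) without passing the test, and for the other 7 members tested the libraries of the groups overlapped. In microglial barcodes alone 0 of 9295 genes passed (0%), with 105 at an unadjusted p under 0.05 and 5 by DESeq2, and the members' median was -0.87.

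The replicates went in opposite directions for 7 of 9 members. They also differ in sequencer, and in replicate 2 Rhox5 went against the labels, as given above. The part of either in this reversal was not tested. In replicate 1 metastasis was below naive for all 9 members, by log2 ratios of -0.12 (-0.34 to 0.09) for Pf4, -0.75 for Mrc1, -0.81 for F13a1, -2.13 for Folr2, -2.21 for Cd163, -2.72 for Stab1, -2.91 for Cbr2, -3.41 for Lyve1 and -4.34 for Ccl24. In replicate 2 it was above naive for 7 of 9, from 1.02 for Cd163 to 2.72 for Lyve1, with Mrc1 at 1.37 (0.97 to 1.77) and Pf4 at 1.10 (0.63 to 1.57). The intervals of Cd163 (-0.45 to 2.40) and Folr2 (1.72, -2.06 to 5.51, on 2 UMIs in each library) span 0, so for 5 of 9 the interval lay above 0. These intervals treat UMIs as independent, but single barcodes held many of them. In metastasis 2, 3 barcodes held 15 of 21 Cbr2 UMIs and 27 of 65 Pf4 UMIs. In naive 2, 3 barcodes held 54 of 100 Pf4 UMIs and 10 of 12 Ccl24 UMIs. Lyve1 rested on 8 UMIs in metastasis 2 and 4 in naive 2. Stab1 (-0.53, -0.78 to -0.30) and F13a1 (-0.15, -0.83 to 0.49) were below in replicate 2 too. For the summed list the ratio was -1.16 in replicate 1 and 0.20 in replicate 2. In microglial barcodes the ratios in replicates 1 and 2 had opposite signs for 7 of 9 members: -0.98 and 1.59 for Mrc1, -0.53 and 1.48 for Pf4, -3.84 and 2.32 for Cbr2, -1.94 and 0.73 for Folr2, -4.42 and 3.43 for Ccl24, -2.67 and 2.73 for Lyve1, and -2.71 and 1.41 for Cd163. The intervals of Folr2 and Cd163 span 0 in replicate 2. Stab1 (-2.64 and -0.66) and F13a1 (-1.73 and -0.15) were below 0 in both, F13a1 in replicate 2 within counting error. In metastasis 1 Stab1 was found in 6.19% of microglial barcodes thinned to 800 UMIs, against 21.8% to 35.6% in the other 5 libraries. Metastasis 1 also had the least of the microglial list, 1367 CPM over all barcodes against 5195 CPM or more elsewhere, and whether this bears on Stab1 was not tested.

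**Figure D5:**
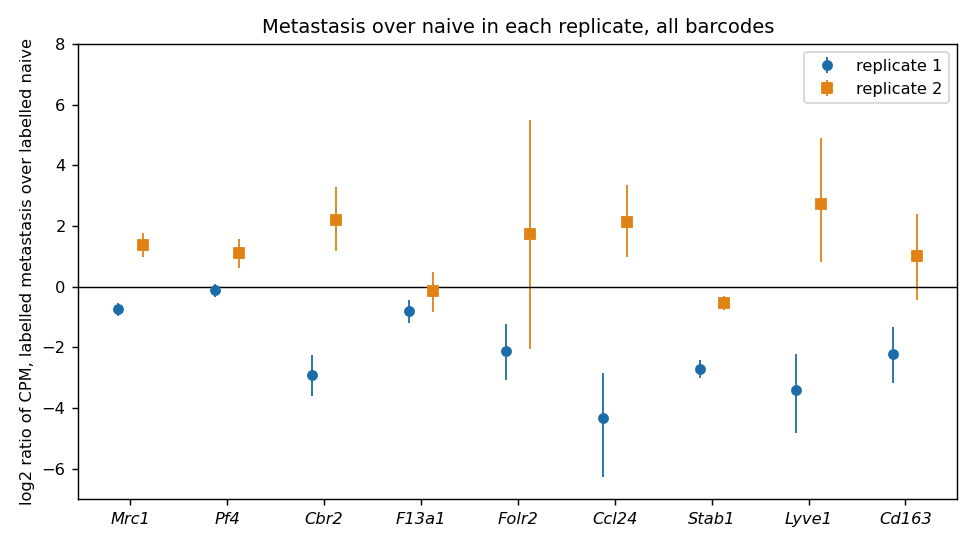
Log2 ratio of CPM over all barcodes, labelled metastasis over labelled naive, in replicate 1 (circles) and replicate 2 (squares); bars are 95% counting intervals. All 9 genes lie below 0 in replicate 1 and 7 of 9 lie above 0 in replicate 2, with Stab1 below 0 in both.

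The share of list-positive barcodes averaged 10.1% ± 0.99 (SD, n = 2) in naive and 6.65% ± 6.01 (SD, n = 2) in metastasis, a difference of -3.45 points (exact two-sided permutation test, p = 1, where 0.333 is the smallest p that 2 against 2 libraries allow). Within replicates the difference was 1.50 points in replicate 1 and -8.40 points in replicate 2. Without metastasis 2 the difference was 0.80 points. Among barcodes under 10% mitochondrial UMIs it was -11.8 points (exact permutation test, p = 0.333), at -0.63 points in replicate 1 and -23.1 points in replicate 2, so the sign in replicate 1 changed; the shares there were 11.5%, 25.4%, 10.9% and 2.34% in naive 1, naive 2, metastasis 1 and metastasis 2. Thinned to 800 UMIs, metastasis was lower in both replicates, by -4.72 points and by -0.12 points, the latter on 2 barcodes in metastasis 2 (exact permutation test, p = 0.333). Multi-member barcodes averaged 1.60% in naive and 0.70% in metastasis, at 2.5%, 0.7%, 1.0% and 0.4% in naive 1, naive 2, metastasis 1 and metastasis 2.

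The Cx3cr1 comparison has 1 library in each group and no test. The list stood at 519 CPM in the null and 641 CPM in the heterozygous library, a log2 ratio of -0.31 (counting interval -0.43 to -0.19). Pf4 had 76 against 227 UMIs (-1.15, -1.54 to -0.77) and Lyve1 6 against 28 (-1.79, -3.36 to -0.49). Those 2 were past a log2 ratio of -1 among 8 members with at least 20 UMIs over both libraries, beside 3.95% of 10443 genes that were as low in null and 6.27% past 1 in either direction. Mrc1 (-0.49), F13a1 (-0.53), Cd163 (-0.61) and Cbr2 (-0.71) lay between, Ccl24 was at 0.34 on 16 against 17 UMIs, and Folr2 had 2 against 7 UMIs. Stab1 did not differ beyond counting error, at 337 against 343 CPM (-0.02, -0.18 to 0.13). The intervals of these genes treat UMIs as independent, but few barcodes held many of them. In the heterozygous library, 3 barcodes held 98 of the 227 Pf4 UMIs and 12 of the 28 Lyve1 UMIs. In the null library, 3 barcodes held 19 of 76 and 4 of 6. List-positive barcodes were 8.8% (7.12% to 10.7%) in null and 14.3% (12.2% to 16.6%) in heterozygous, a log2 ratio of -0.70 (-1.10 to -0.31). Thinned to 800 UMIs they were 1.31% and 2.28%, a ratio of -0.80 with an interval of -1.95 to 0.28 that spans 0. Without the multi-member barcodes, 4 in null and 14 in heterozygous, the list stood at 492 and 513 CPM. These barcodes were chosen by the same 9 genes, after their values were seen. Leaving them out lowers both sums and is no test of where the difference lies.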

How the data were processed

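For each library the authors deposited UMI counts, genes in rows and 1000 barcodes in columns; their whole numbers, with totals that differ between libraries, give the unit. STAR, Seurat and mm10 are named, with no version or role, in the submitters' processing notes; how the 1000 barcodes were chosen is not given in the sources used here. Groups came from the sample labels. The members, marker lists and tests were chosen with earlier results of these data known.

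All barcodes were used at any mitochondrial share, and doublets were not called. A microglial barcode had 3 or more UMIs of P2ry12, Tmem119, Sall1, Siglech, Gpr34, P2ry13, Sparc and Olfml3 and more of them than over the infiltrating list (Ccr2, Ly6c2, Plac8, Arg1, Ms4a4c, Ms4a8a, F10, Ly6i, Mgst1). An infiltrating barcode had 3 or more of the latter, more than microglial UMIs, and fewer than 3 carcinoma (Rhox5, Esx1, Epcam, Krt8, Krt18, Wfdc2) or neutrophil UMIs. Chil3 and Krt19 were not matched in the tables, which list Chil3 under its older symbol Chi3l3, so it took no part in the infiltrating gate.

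CPM is UMIs per 1000000 UMIs of the same barcodes; only 3′ ends are counted, so gene length does not enter. Intervals are exact at 95% (Poisson for levels, Clopper-Pearson for shares) and cover counting error only; a count of 0 allows up to 3 counts. UMIs were summed per library, and per class within a library, and tested in edgeR 4.0.16 (R 4.3.3) by quasi-likelihood (TMM, filterByExpr, Benjamini-Hochberg over all genes tested, threshold 0.05), after the script had been tested on simulated data. DESeq2 1.42.0 was an alternative. Shares were compared by exact permutation over libraries. Nothing in the labels says how the brains of a group were handled together or apart, so the p-values speak of the spread among these libraries alone, which may be technical. The replicate number is also the sequencer (per the labels, HiSeq for 1, NextSeq for 2 and both Cx3cr1 libraries), which pairs the wild-type libraries by batch. Same-numbered libraries deviated from their group means with a correlation of -0.42 over genes, so on balance in opposite directions. With 2 libraries in a group, the pairs must give the same value, so this is a single number.

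Named genes were all 9 members; the other border macrophage list; for list-positive against microglial barcodes at most 8 genes a direction that passed, outside the members and the microglial list, with at least 20 UMIs in the higher class and the same side in every library, by log2 change; and the 10 genes most like the list by phi among those seen in at least 20 barcodes. Gene positions on mm10 (GENCODE annotation of GRCm38, whole gene) are Mrc1 chr2:14229392-14332057, Pf4 chr5:90772435-90773383, Cbr2 chr11:120729489-120732114, F13a1 chr13:36867178-37050244, Folr2 chr7:101839988-101857194, Ccl24 chr5:135569937-135573049, Stab1 chr14:31139013-31168641, Lyve1 chr7:110850607-110863239 and Cd163 chr6:124304656-124330527. Alternatives were other filters, normalizations, UMI minimums, mitochondrial limits, thinning to 800 UMIs and leaving out each library. Single values of some genes of the other border macrophage list are not reported here.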

Additional observations from a re-analysis of the deposited data

How the results depend on the processing

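For metastasis against naive, the counts of 0 genes stayed 0 over all barcodes and over microglial barcodes with RLE size factors, with mitochondrial limits of 10% and 25% and without each library in turn (a range of 0 to 0, the lone library of a group being assumed to vary like the others). With replicate number as a block, the paired fit also called 0 genes in both. Without a low count filter 110 and 132 genes passed, and with DESeq2 5 and 5. The 5 were the globin genes Hba-a1, Hbb-bs and Hbb-bt (higher) and Hspb1 and Lcn2 (lower) both times, named after their values were seen and none a member. Crossing the pairs (chosen after seeing the data) gave 1 and 2 calls, Hspb1 and, in microglial barcodes, Lcn2. No member passed in any of 176 such member values, whose lowest adjusted p was 0.166 by edgeR or DESeq2. Leaving out naive 1 changed the sign of 11 of 16 member values and leaving out metastasis 1 of 10 of 16.

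The count of 351 genes in list-positive against microglial barcodes was 207 with DESeq2, 197 under 10% mitochondrial UMIs, 7 without barcodes holding 3 or more microglial UMIs (the members F13a1, Mrc1 and Pf4 with Gm6377, Hp, Lyz1 and Mgst1), and 582 when Stab1 was left out of the list after seeing the data; leaving out each library gave 228 to 340, the lowest without the heterozygous library. DESeq2 tested 2829 genes and the 7 rest on 3 libraries; for the others the cause was not tested. The share difference of -3.45 points turned to 2.20 without barcodes holding 3 or more microglial UMIs and to 1.70 without Stab1 in the list, and ranged from -7.70 to 0.80 as each library was left out; it was -11.8 under 10% mitochondrial UMIs and -8.75 with a minimum of 2 UMIs. The null to heterozygous log2 ratio of shares was -0.30 under 10% mitochondrial UMIs and -1.81 for barcodes with 4 or more members, and that of the list level was -0.46 under 10%; the cause was not tested. Leaving out barcodes with 3 or more microglial UMIs gave no such ratio, as none was left in null. Stab1 in barcodes chosen by the other 8 members turned from -0.61 to 0.73 when thinned. Depth limits the rare members: Folr2, Lyve1, Ccl24 and Cd163 had 10 UMIs or fewer in 1 library or more.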

Other observations

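Within the 64 barcodes with 4 or more members, class II genes were compared by which member was present, as a description without a test. The median class II level per barcode was lower with the member than without it for 6 of 9: Pf4 (1181 and 7196 CPM, with 6 barcodes without it), Cbr2 (1122 and 3472 CPM, 40 and 24 barcodes), F13a1 (1291 and 1604 CPM), Folr2 (1113 and 1439 CPM), Ccl24 (913 and 2060.4 CPM, 20 and 44 barcodes) and Lyve1 (958 and 2218 CPM, 14 and 50 barcodes). It was higher with Mrc1 (1364 and 723 CPM, with 7 barcodes without it), Stab1 (1364 and 1125 CPM) and Cd163 (1364 and 1218 CPM). Summed over barcodes the order was the reverse for 4 of 9: Lyve1 (19135 and 15568 CPM), F13a1 (17755 and 11994 CPM), Mrc1 (13584 and 37197 CPM) and Cd163 (9379 and 18747 CPM). Cd74 was found in 9 of the 14 barcodes with Lyve1 and 34 of the 50 without it. The medians come from barcodes of 6 libraries in unequal numbers, and single barcodes spread from 0 to 81767 CPM.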
